A study of Mus musculus with 6 samples.

Results

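Semaphorins, plexins and neuropilins are the ligands, receptors and co-receptors of one family of guidance signals. The members were the mouse genes of semaphorin classes 3 to 7, the plexins of subfamilies A to D and the neuropilins, found by gene symbol, with the X-linked Plxna3 and Plxnb3 left out. This gave 29 genes, namely 20 semaphorins, 7 plexins and 2 neuropilins. Of these, 26 genes were represented, by 34 of the 23485 RefSeq transcript IDs. For Nrp1, Nrp2 and Sema3b no transcript ID was analysed here, and Nrp1 and Nrp2 enter only with their promoters.

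Whole brains came from wild-type C57BL/6 embryos at E15.5. There were 3 female and 3 male samples, with no treatment or engineered allele in either group. Sex was read from the gonads, by testicular cords, and each sample was RNA pooled from 2 or 3 embryos, so that one value averages a pool. The labels give neither litter nor batch, and the p-values below measure the spread between these pools only. The question was whether the transcripts of this guidance system differed in abundance between the sexes, and at what levels ligands and receptors were present.

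As background, semaphorins steer growing axons and migrating cells, mostly by repulsion, and also act on blood vessels. Class 3 semaphorins are secreted and most of them bind a neuropilin, which lends the binding site while a plexin A carries the signal into the cell. Classes 4 to 6 span the membrane, class 7 is held at the surface by a lipid anchor, and these bind plexins directly. Plexins act through a GTPase-activating domain on small GTPases, with a loss of actin filaments and adhesion at the growth cone. In the embryonic brain the family is known for callosal, thalamocortical and hippocampal axon paths and for the layering of cortical neurons.

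Totals ranged from 4908565 to 10294443 counts per sample. Levels are given in CPM, the count scaled by the library total times its TMM factor. An ID without any count may still have had up to 3, or 0.2997 to 0.597 CPM depending on the sample, counting error alone considered. Xist, the RNA that silences an X chromosome in females, and Ddx3y, a Y-linked RNA helicase, matched the labels in 6 of 6 samples. Neuronal markers were abundant, at a summed 2784 to 3208 CPM in females and 3003 to 3851 CPM in males, with all 7 genes of the list counted. Markers of other tissues were abundant too. The 7 markers of meninges and fibroblasts summed to 18962 to 23393 CPM in females and 17576 to 25854 CPM in males, mostly from Col1a1, Col1a2 and Col3a1. The skeletal muscle list reached 2637 to 3006 CPM in females and 2149 to 2665 CPM in males, nearly all of it Myh3. Levels of the guidance genes are therefore those of brain with such tissue, and how much of each came from it was not tested.

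The promoters of 24 of the 29 genes were matched in RefSeq (GRCm38.p6), as 35 windows of 300 bases running from 250 before to 50 after a start. Plxna1, Plxna4, Sema3b, Sema3f and Sema6a had no entry. Those of Sema5a and Plxna2 are shown because these were the ligand and the receptor whose level in every male sample lay below that in every female sample (values below). The Sema5a window is at chr15:32244563-32244862 and the Plxna2 window at chr1:194619579-194619878, both on the plus strand. Capitals mark the GC box GGGCGG, the letters bound by Sp1-type factors, or its reverse complement.
Sema5a: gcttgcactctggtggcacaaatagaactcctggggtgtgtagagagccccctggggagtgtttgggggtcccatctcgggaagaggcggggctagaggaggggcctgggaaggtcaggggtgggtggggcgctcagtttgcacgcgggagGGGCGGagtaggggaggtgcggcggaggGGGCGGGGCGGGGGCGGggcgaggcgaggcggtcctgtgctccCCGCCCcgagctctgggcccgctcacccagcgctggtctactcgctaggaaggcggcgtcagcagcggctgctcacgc
Plxna2: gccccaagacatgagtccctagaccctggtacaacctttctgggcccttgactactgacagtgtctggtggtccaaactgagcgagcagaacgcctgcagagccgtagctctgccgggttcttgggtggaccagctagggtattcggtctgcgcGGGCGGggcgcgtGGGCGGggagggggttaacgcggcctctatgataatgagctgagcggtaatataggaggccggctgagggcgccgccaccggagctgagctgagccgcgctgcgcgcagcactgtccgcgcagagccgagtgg

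The Sema5a window held 5 GC boxes, counting overlapping matches on both strands, with 23 CG dinucleotides and a GC content of 71.3%. The Plxna2 window held 2 GC boxes and 25 CG dinucleotides at a GC content of 64.7%. Over the member windows, 26 of 35 (74.3%) held a GC box, against 35.7% of the 32851 windows of that length. None of the 35 held TATAAA on either strand, against 13.6% of all windows. The E box CACGTG, which is its own reverse complement, was in 3 member windows (8.57%) and in 7.15% of all. The median member window had 15 CG dinucleotides and 62.7% GC, and the median of all windows had 7 and 52.7%. Several windows of one gene can overlap, and a match of letters is a description, not a binding site.

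The members fell into 2 sets by how well they were counted. The 14 genes with a single RefSeq transcript model had 635 to 32725 counts in the 6 samples together (median 10247). The 12 counted genes with several models had 2 to 179 (median 35), so the sets did not overlap. Among all protein-coding genes, those with a single model had a median of 726.5 counts over 11458 genes, and those with several models had a median of 31 counts over 5949 genes. How reads shared by several transcript models were assigned is not stated. A low count of a gene with several models therefore cannot be told apart from a low level of its RNA, and such genes were left out of the comparison of levels.

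**Figure D1:**
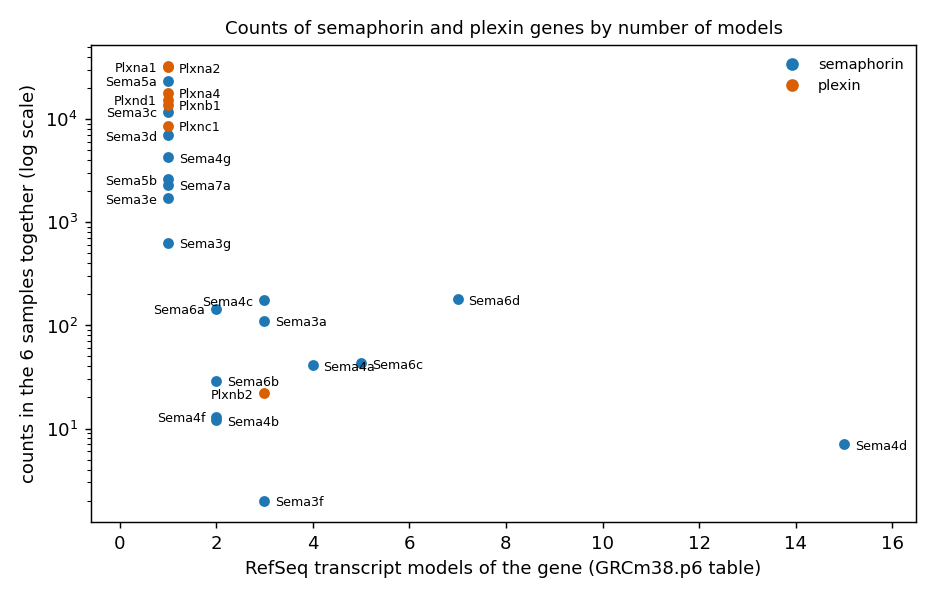
Counts summed over the 6 samples (vertical, log scale) for the 26 counted genes, against the number of RefSeq models of the gene (horizontal). All 14 genes with 1 model lie at 635 counts or above, and all 12 with several models lie at 179 or below.

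Sema3a, the founding collapse-inducing ligand of the family, shows the size of this limit. Its 3 models held 111 counts in all, with 7 to 32 per sample. Sema6d, a membrane-bound plexin A1 ligand with 7 models, had 179 counts, the most of the genes with several models. Sema4c and Sema6a, further membrane-bound semaphorins, had 175 and 145 counts. Sema6c had 43, Sema4a 41, Sema6b 29, Sema4f 13, Sema4b 12 and Sema4d, with 15 models, had 7 counts. Sema3f, a secreted ligand that signals through neuropilin 2, had 2 counts, both in male sample 2. Plxnb2, which guides neuroblast migration, was the single plexin of this set, with 22 counts. Per kilobase, these genes averaged 0.0146 (Sema3f) to 0.970 CPM (Sema4c) over the 6 samples.

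Levels of different genes are given per kilobase of the longest annotated transcript (CPM/kb, mean ± SD over 6 samples). Every level per kilobase depends on the length used. Values are also given under 2 other lengths, the median annotated transcript length and the coding length (the latter chosen after seeing the data). For genes with a single model this is done where a value moves by more than 1.5 times or a stated order turns. The median length falls below the coding length for some genes, such as Plxnb1 (731 against 6360 bases) and Plxnd1 (1674 against 5778 bases). Their levels under the median length are raised by this. Whole-tissue RNA does not tell fewer expressing cells from less RNA per cell. Among the receptors, 2 plexin A genes stood highest per kilobase of the longest transcript. Plxna1, which pairs with neuropilins for secreted ligands and also binds class 6 ligands, stood at 76.4 ± 4.45 CPM/kb (121 with coding length), with females at 82.4, 72.2 and 78.5 and males at 79.2, 70.7 and 75.4. Plxna2, a receptor of Sema6a in the cerebellum and hippocampus, followed at 62.3 ± 5.81 CPM/kb (193 with median transcript length, 121 with coding length), with females at 69.0, 66.6 and 66.3 and males at 54.4, 57.9 and 59.7. These 2 genes kept this order in 6 of 6 samples and their ranges did not overlap. The order rests on the length used, since the ratio of Plxna2 to Plxna1 was 0.816 here, 0.997 with coding length and 2.08 with median transcript length, where Plxnb1, at 399, was the highest plexin. Plxna4, a receptor for Sema3a and Sema6 ligands in sensory and forebrain axons, was lower, at 30.2 ± 2.28 CPM/kb, below Plxnd1 and Plxnb1, but with coding length it reached 66.9, above Plxnd1 (55.7) and Plxnb1 (45.9).

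The other plexins lay below Plxna2 per kilobase of the longest transcript. Plxnd1, the receptor of Sema3e in vessels and in striatal and thalamic circuits, reached 46.6 ± 4.46 CPM/kb, with a range of 40.3 to 51.3, and 192 with median transcript length. Plxnb1, the receptor of Sema4d that couples to RhoA, stood at 34.0 ± 5.07 CPM/kb and ranged from 24.96 in female sample 2 to 39.7 in male sample 2. Plxnc1, the receptor of Sema7a, had the smallest spread, at 25.9 ± 0.942 CPM/kb with a range of 24.4 to 26.9. The 6 plexins with a single model summed to 275 ± 15.0 CPM/kb, of which plexin A genes made 61.4% ± 1.82. With median transcript length this share was 34.0%.

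Among the secreted ligands, Sema3c, which attracts cortical axons and shapes the cardiac outflow tract, was highest at 45.4 ± 3.83 CPM/kb. Its females stood at 38.9, 49.3 and 47.2 and its males at 45.6, 43.3 and 48.3, which overlap. Its level was 161 with median transcript length and 111 with coding length. Sema3d, a secreted ligand of vessels and axons, reached 22.8 ± 4.36 CPM/kb (35.8 and 63.8 with those lengths). Sema3e, which binds plexin D1 without a neuropilin, was at 5.31 ± 0.372 CPM/kb, and at 15.6 with coding length. Sema3g, a class 3 ligand known from arterial endothelium, was the lowest of the 14 under all 3 lengths, at 2.89 ± 0.605 CPM/kb, and at 5.60 with coding length. Sema3c was thus above Sema3d by a ratio of 2.06 ± 0.469 within samples, above Sema3e by 8.62 ± 1.16 and above Sema3g by 16.4 ± 4.51. With median transcript length the ratios of the mean levels were 4.50, 26.7 and 55.7. Sema3d, Sema3a, Sema3e and Sema3c lie along one stretch of chromosome 5 (NCBIM37), in that order, from the start of Sema3d at 12383166 to the end of Sema3c at 17236086. Within this stretch, the lowest ligand of the 3 with a single model (Sema3e) lies between the others.

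Among the membrane-bound ligands, Sema5a, which carries thrombospondin repeats and binds plexin A receptors, was highest at 47.4 ± 9.74 CPM/kb, and reached 134 with median transcript length and 158 with coding length. Its class mate Sema5b, which carries the same kind of repeats, stood at 12.003 ± 2.50 CPM/kb, and at 35.7 with median transcript length. The Sema5a to Sema5b ratio was 4.16 ± 1.49 and ran from 2.28 in male sample 2 to 6.86 in female sample 2. This was the largest fold between lowest and highest sample among the 4 within-class semaphorin pairs given here. With coding length the ratio of the mean levels was 9.56. Sema4g, a membrane-spanning class 4 ligand, reached 20.2 ± 2.48 CPM/kb, and 36.6 with coding length. Sema7a, the lipid-anchored ligand that promotes axon growth, reached 14.4 ± 2.25 CPM/kb, and 23.8 with coding length. The 8 semaphorins with a single model summed to 170.5 ± 13.6 CPM/kb, of which Sema5a and Sema3c made 54.4% ± 2.76. The 4 secreted ones made 76.5 ± 5.32 CPM/kb and the 4 membrane-bound ones 94.0 ± 10.3 CPM/kb, an order that turned with median transcript length (206 and 204).

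**Figure D2:**
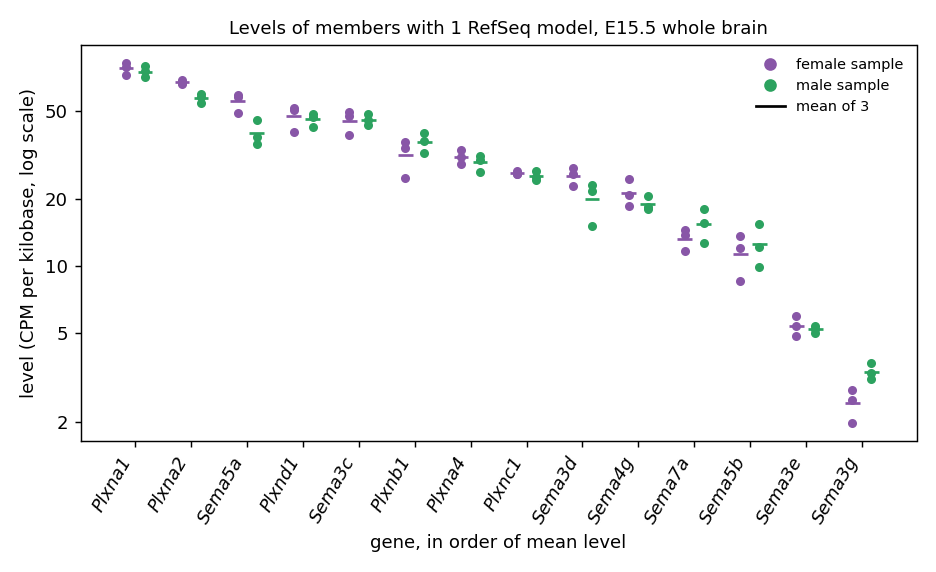
Level in CPM per kilobase (vertical, log scale) of the 14 genes with 1 RefSeq model, ordered by mean level, with a point per sample and a line at the mean of 3 samples per sex. Plxna1 is highest at 76.4 and Sema3g lowest at 2.89, and for Sema5a, Plxna2 and Sema3g the female and male points do not overlap.

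In the order of levels, neighbouring genes were separated over all 6 samples in 4 of 13 steps, from Plxna1 to Plxna2, from Sema4g to Sema7a, from Sema5b to Sema3e and from Sema3e to Sema3g. The ranges of the other 9 neighbouring pairs overlapped. Sema5a was above Plxnd1 in 2 of 6 samples and Plxnd1 above Sema3c in 4 of 6, so that the CPM/kb levels of these 3 genes were not separated. In the pairs of Plxnd1 with Sema3e and of Plxnc1 with Sema7a, the receptor stood higher than the ligand. Plxna2 was above Sema5a, which binds plexin A receptors, by a ratio of mean levels of 1.31, with overlapping ranges. Other pairs were not compared. Plxnd1 was above Sema3e by a ratio of 8.77 ± 0.487, with a range of 8.26 to 9.55 over the 6 samples, but the ratio of the mean levels was 3.58 with coding length and 31.9 with median transcript length. Plxnc1 was above Sema7a by a ratio of 1.83 ± 0.276. The summed plexins were above the summed semaphorins by 1.62 ± 0.117, and by 1.04 with coding length. These sums hold 6 of the 7 plexins but 8 of the 20 semaphorins, those with a single model. The ratio therefore does not compare the whole of each family. The length used decides part of the order of genes. With coding length, Sema5a came first at 158, then Plxna1 and Plxna2 at 121 each and Sema3c at 111, and the sums were 431 for semaphorins and 449 for plexins.

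Deviations of single samples differed between genes. The median of the 14 genes in a sample lay between -0.09 (male sample 2) and 0.12 (female sample 1) in log2 CPM around the gene means, and that of all tested IDs between 0.01 and 0.03. Female sample 2, the one with the lowest total, was lowest of the 6 for Sema3g (-0.52), Sema5b (-0.46), Plxnb1 (-0.43), Sema7a (-0.28), Plxnd1 (-0.20) and Sema3e (-0.12). Male sample 2 was highest of the 6 for Sema5b (0.40), Sema3g (0.37) and Plxnb1 (0.24), and lowest for Sema3d (-0.57), Sema5a (-0.39), Plxna1 (-0.11) and Plxnc1 (-0.09). In male sample 2 the Col1a1 level was also the lowest, at 4060 CPM against 6300 to 8395 CPM in the other 5, and its part in these values was not tested. Of the 5 tested cartilage IDs, 3 were lower and 2 higher in males, with a median of -0.45 in log2, and the sexes overlapped for all 5. Below an unadjusted p of 0.05 in edgeR, where the background was 11.5%, were 2, Matn1 (-0.78) and Col9a1 NM_007740 (-0.91). A second ID of Col9a1 was at 0.47, Col11a2 at 0.25 and Col2a1 at -0.45. Their part in the members' values was not tested either.

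**Figure D3:**
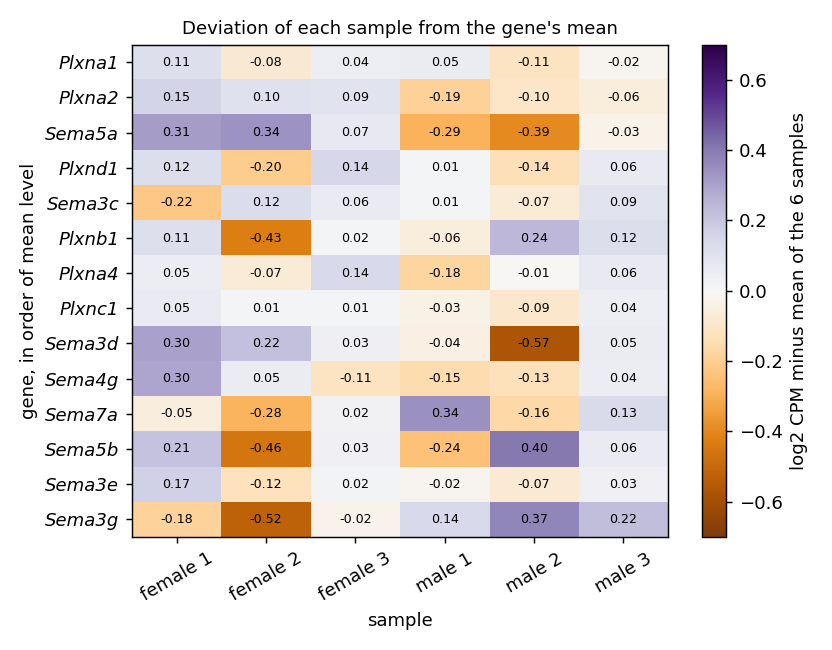
Log2 CPM of each of 14 genes (rows, by mean level) in each of 6 samples (columns), minus the gene's mean over the 6 samples. Sema5a and Plxna2 are above 0 in all females and below 0 in all males, and Sema3g is the reverse.

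The sexes were compared with edgeR's quasi-likelihood F test over the 13374 IDs that had at least 10 counts in at least 1 sample, with Benjamini-Hochberg adjustment over all of them. Positive log2 fold changes are higher in males. Of the 34 member IDs, 21 were tested, the 14 of genes with a single model and 7 of genes with several, and 13 had too few counts. No member passed an adjusted p of 0.05 in edgeR, where 0.0299% of all tested IDs were called. Below an unadjusted p of 0.05 were 2 of 21 members (9.52%), against 11.5% of all tested IDs. Both, Sema5a and Sema3d, were lower in males, where the background was 4.82%, and 0 were higher, where it was 6.68%. The number lower in males was 1 without female sample 1, without female sample 2 or without male sample 2. The number higher in males was 1 without female sample 3 or without male sample 1. The direction also depended on the fit. With DESeq2, 3 members were lower and 0 higher in males at that p. With each sample's trend with transcript length removed, 0 were lower and 2 were higher. The CPM of females and males did not overlap for 3 of 21 members (14.3%), against 17.1% of all. Of these, 2 were lower in males (background 8.33%) and 1 was higher (background 8.73%). The members as a set thus stood near the background. The median log2 fold change was -0.05 for the 15 semaphorin IDs and -0.05 for the 6 plexin IDs, and -0.01 over all tested IDs, with 13 members on the lower side and 8 on the higher.

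**Figure D4:**
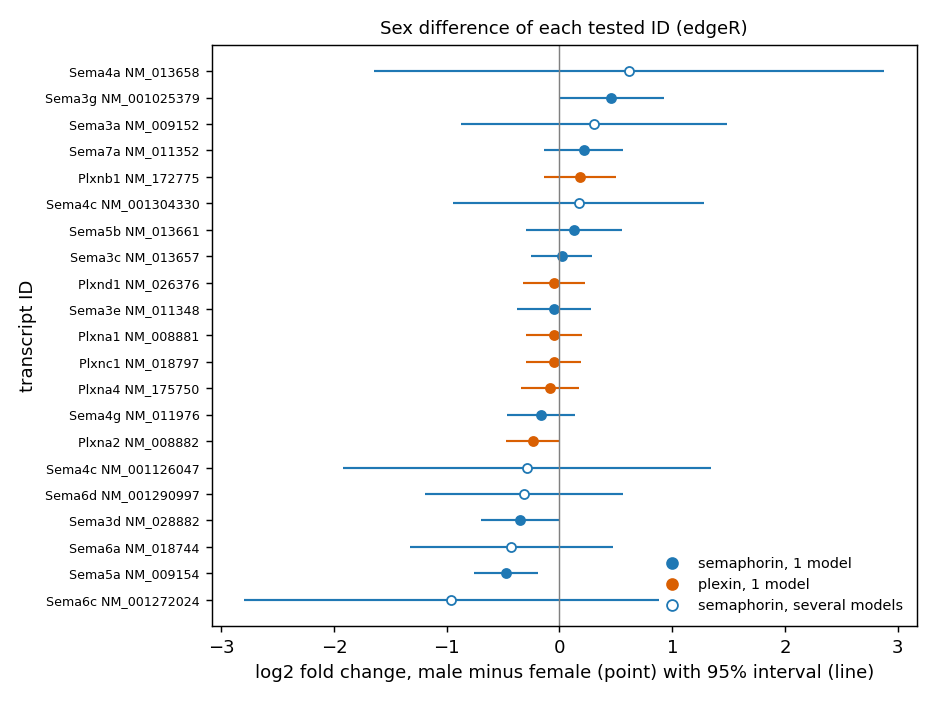
Log2 fold change of male minus female (horizontal) for the 21 tested IDs, with lines for the 95% interval from edgeR; filled points are genes with 1 RefSeq model and open points genes with several. The interval of Sema5a (-0.76 to -0.19) lies farthest from 0, and those of genes with several models are the widest.

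Sema5a (NM_009154, chr15:32174568-32626096, NCBIM37, plus strand) had the lowest p of all members. Its level was 624.9, 635.2 and 527.5 CPM in female samples 1, 2 and 3, and 411.1, 382.8 and 492.4 CPM in the males. All females were above all males, with means of 596 ± 59.5 and 429 ± 56.9 CPM (SD, n = 3 each). The log2 fold change was -0.48 (SE 0.13, unadjusted p = 0.00334, adjusted p = 0.338 in edgeR). DESeq2 called it, at an adjusted p of 0.0419, against a background of 1.55% of the 6114 IDs given an adjusted p. So did DESeq2 with 1 factor of unwanted variation from the residuals (RUVr, the kind of correction the study used), at 0.0137. The background there was 3.68% of the 8966 IDs given an adjusted p. With 2 such factors edgeR also called Sema5a, at 0.0376, against a background of 3.28% of 13374 IDs. It was called in 3 of 18 alternatives, and over these its adjusted p ran from 0.0137 to 0.809, the latter without female sample 2. The promoter printed above belongs to this gene.

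Transcript length moves with this result. Over 11356 tested IDs with a length, the log2 fold change fell with length (Spearman's rho across IDs -0.25, which are not independent replicates). The 14 members with a single model had a median length of 6864 bases, against 2913 bases over those IDs, and Sema5a has 10809. With each sample's trend with length removed, the log2 fold change of Sema5a was -0.22, and the median was 0.12 for semaphorins and 0.16 for plexins, a change of sign for both. The median over all tested IDs was then 0.03. What part length plays was not tested further.

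Plxna2 (NM_008882, chr1:196446023-196643063, NCBIM37, plus strand), the receptor shown above, had 762.0, 735.3 and 731.4 CPM in the females and 600.5, 638.8 and 658.3 CPM in the males. The groups did not overlap, and the spread was narrow on both sides (743 ± 16.6 and 633 ± 29.4 CPM). The log2 fold change was -0.23 (SE 0.11, unadjusted p = 0.0551, adjusted p = 0.439 in edgeR), and it became 0.030 with the length trend removed, for a transcript of 11036 bases. Its plexin A partners did not show this split. Plxna1 had a log2 fold change of -0.05 (95% interval -0.30 to 0.20) and Plxna4 of -0.08 (-0.34 to 0.18), and both overlapped between the sexes. The difference between these genes was not tested.

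Sema3d (NM_028882, chromosome 5, plus strand) had 180.7, 170.0 and 149.7 CPM in the females and 142.4, 98.6 and 151.9 CPM in the males. The groups overlapped, since male sample 3 was above female sample 3. The log2 fold change was -0.35 (SE 0.16, unadjusted p = 0.0491, adjusted p = 0.433 in edgeR). It was -0.17 without male sample 2 and -0.18 with the length trend removed. Of its neighbours on the chromosome, Sema3a had a log2 fold change of 0.31 (95% interval -0.87 to 1.49), Sema3e of -0.05 (-0.38 to 0.28) and Sema3c of 0.02 (-0.25 to 0.29). The interval of Sema3d was -0.69 to -0.0015, and the differences between these genes were not tested.

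Sema3g (NM_001025379, chr14:32031046-32043536, NCBIM37, plus strand) was the member that lay higher in every male sample. It had 11.3, 9.0 and 12.6 CPM in the females, from 45 to 124 counts, and 14.2, 16.6 and 15.0 CPM in the males, from 109 to 150 counts. The log2 fold change was 0.46 (SE 0.21, unadjusted p = 0.0512, adjusted p = 0.437 in edgeR). Markers of endothelial cells, where this ligand is known, were mixed. Their 5 counted genes of 7 summed to 619 to 659 CPM in females and 522 to 596 CPM in males. Of the 4 tested, Cdh5, Kdr and Flt1 were lower in every male sample, as were 8.33% of all tested IDs. Their unadjusted p was 0.0590, 0.162 and 0.119 in edgeR. Cldn5 overlapped between the sexes but was higher in males on average, with a log2 fold change of 0.43 (SE 0.17, unadjusted p = 0.0235, adjusted p = 0.379 in edgeR). The part of these cells in the Sema3g values was not tested. Plxnd1, the vessel receptor, overlapped between the sexes at a log2 fold change of -0.05 (95% interval -0.32 to 0.23).

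The remaining members named for the lowest p were Sema7a and Plxnb1, and neither separated the sexes. Sema7a (NM_011352) had 45.4, 38.6 and 47.8 CPM in females and 59.6, 42.1 and 51.5 CPM in males. The fitted difference was 0.21 in log2 (SE 0.16, adjusted p = 0.620 in edgeR), and it ran from 0.09 without male sample 1, over 0.13 without female sample 2, to 0.34 without male sample 2. Its receptor Plxnc1 had a log2 fold change of -0.05 (95% interval -0.29 to 0.19). Plxnb1 (NM_172775) had 312.3, 214.6 and 292.1 CPM in females and 277.4, 341.1 and 313.5 CPM in males. The fitted difference was 0.18 in log2 (SE 0.15, adjusted p = 0.649 in edgeR), which fell to 0.04 with female sample 2 left out, was 0.12 without male sample 2 and 0.29 without female sample 1, and was 0.40 with the length trend removed.

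**Figure D5:**
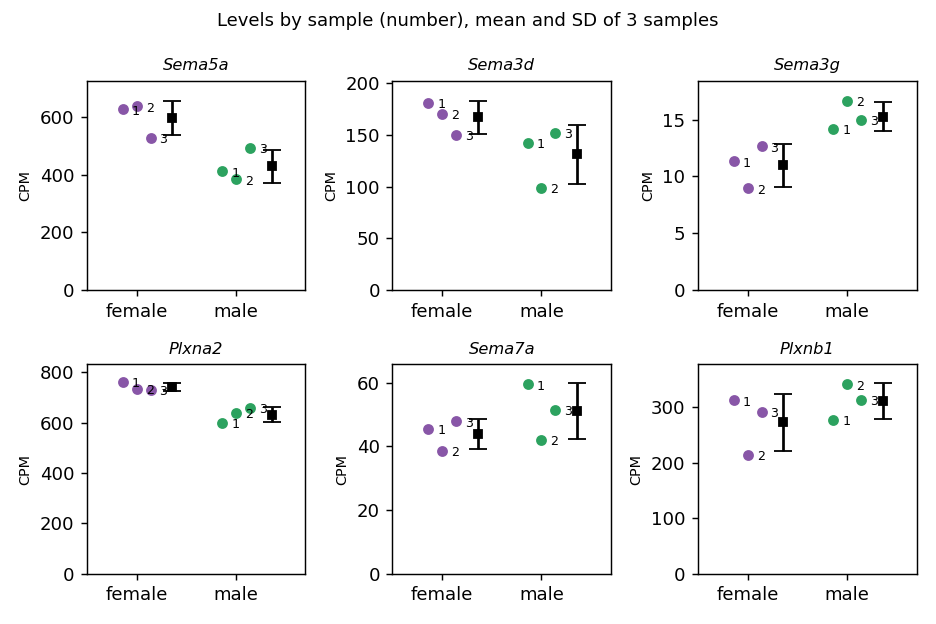
CPM (vertical, from 0) of the 6 members with the lowest p in each female and male sample, numbered 1 to 3, with a square and bar for the mean and SD of 3. The sexes are apart for Sema5a, Plxna2 and Sema3g and overlap for Sema3d, Sema7a and Plxnb1.

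The other genes with a single model overlapped between the sexes. Sema4g was at -0.16 (95% interval -0.46 to 0.14) and Sema5b at 0.13 (-0.29 to 0.56). Over the 8 such genes outside the 6 with the lowest p, log2 fold changes ran from -0.16 to 0.13 with SEs of 0.11 to 0.20. The 7 tested IDs of genes with several models ran from -0.96 (Sema6c) to 0.62 (Sema4a) with SEs of 0.41 to 1.05. A difference of the size seen for Sema5a was not detectable at their depth. Sema4a (NM_013658) was tested only because male sample 3 reached 12 counts, in the sex where it then stood higher. For Sema3a the interval was -0.87 to 1.49, and for Sema6a -1.33 to 0.47.

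The partners of the pathway were taken from a list of 14 genes, of which 11 were counted and 10 tested, and from 28 downstream effectors, of which 25 were counted and 22 tested through 27 IDs. None of these IDs passed an adjusted p of 0.05 in edgeR. Among the partners, which include adhesion molecules, integrins and receptor kinases that assemble with plexins, 1 of 10 IDs was below an unadjusted p of 0.05, where the background was 11.5%. The CPM of the sexes did not overlap for 4 of 10, against 17.1% of all tested IDs, with 2 lower and 2 higher in males. The gene with the lowest p was Vegfc, a growth factor of lymphatic vessels, with 14.5, 10.9 and 14.7 CPM in females and 19.95, 18.8 and 17.1 CPM in males (log2 fold change 0.46, SE 0.20, adjusted p = 0.404 in edgeR). The median log2 fold change of the partners was -0.13.

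Among the effectors, 6 of 27 IDs (22.2%) were below an unadjusted p of 0.05, against 11.5% of all tested IDs, and 5 of them were higher in males, where the background was 6.68%. The sexes did not overlap for 5 of 27 (18.5%), near the 17.1% of all. The lowest p was that of Dpysl4, a collapsin response mediator protein that relays semaphorin signals to microtubules. Dpysl4 had 129.3, 104.5 and 135.3 CPM in females and 166.5, 183.8 and 146.2 CPM in males, and the fitted difference was 0.42 in log2 (SE 0.14, unadjusted p = 0.00951, adjusted p = 0.341 in edgeR). All males were above all females, as they were for Rhoa (NM_016802), the small GTPase downstream of plexin B, at 2.91 ± 0.851 against 5.74 ± 1.502 CPM. Gipc1, an adaptor that binds neuropilin tails, stood at 103 ± 27.7 CPM in females and 140 ± 16.3 CPM in males, with overlap. Mical2 (NM_177282), of the actin-oxidising MICAL enzymes, went the other way, at 15.8 ± 2.70 CPM in females and 8.66 ± 4.53 CPM in males. Rhoa and Mical2 have several models, so their counts carry the limit described above. The median log2 fold change of the effectors was -0.06. The 7 IDs of both lists below an unadjusted p of 0.05 were 4 without female sample 1 or female sample 2 and 3 without male sample 2. Of the 6 tested IDs of the neuronal list, 3 were lower and 3 higher in males. Their median was 0.0090 in log2, and 1 (Tubb3, higher in males) was below an unadjusted p of 0.05. Of the 5 tested IDs of the progenitor list, 2 (Hes1 and Sox2) were below that p, where the background was 11.5%. Both were higher in every male sample, as were 8.73% of all tested IDs. The median over the 5 was 0.27 in log2. The list was at a summed 2504 to 2845 and 2587 to 2966 CPM in females and males. What part these cell types have in the effectors' values was not tested.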

How the data were processed

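Per the labels and methods, total RNA was made into stranded paired-end libraries, and the authors trimmed reads with Trimmomatic 0.32, aligned them to mm9 (NCBIM37) with TopHat2 2.1.1, merged transcripts with Cufflinks 2.2.1 and assigned reads with featureCounts 1.5.1. The deposited values are raw counts per RefSeq transcript ID, one table per sample. The handling of multi-mapping reads and strand is not given in the sources used here. Symbols came from a RefSeq table (GRCm38.p6), which named 23359 of 23485 IDs, and lengths and positions from GENCODE vM1 (NCBIM37). Members and lists were chosen with earlier results of these data known.

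Counts were tested with edgeR 4.0.16 (R 4.3.3), TMM factors and quasi-likelihood, for IDs that reached 10 counts in any sample. DESeq2 1.42.0, RUVr-type factors, other factors and filters, a replicate block, length offsets and left-out samples were alternatives. CPM used TMM-scaled totals, and SEs were derived from the F statistic. Given in full were the 6 member IDs with the lowest p, and up to 4 genes per pathway list below an unadjusted p of 0.05. Further marker lists were neural progenitors, cartilage, microglia, erythroid cells and choroid plexus. Plots used Python 3.11.15 and matplotlib 3.10.9.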

Additional observations from a re-analysis of the deposited data

How the results depend on the processing

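The number of members called was 0 with edgeR and 1 (Sema5a) with DESeq2, alone or given 1 RUVr factor, or with edgeR given 2, and 0 in the other 15 alternatives. The 2 members lower in males at an unadjusted p under 0.05 became 0 with the length trend removed and 1 with the IDs of a gene summed, and were 1 to 2 when 1 sample was left out (1 without female sample 1, female sample 2 or male sample 2). They were 3 in 7 alternatives, namely RLE and upper-quartile factors, 10 or more counts in every sample, DESeq2, and the 3 fits with RUVr factors. The 0 members higher in males became 1 with edgeR and 1 or 2 RUVr factors, 1 with summed IDs, 2 with the length trend removed and 0 to 1 with a sample left out. With the length trend removed the medians were 0.12 for semaphorins and 0.16 for plexins, and Plxna2 turned to 0.030. The 7 pathway IDs below an unadjusted p of 0.05 ranged from 3 (without male sample 2) to 8 when 1 sample was left out, and were 4 without female sample 1 or 2. Summed levels were 410 (semaphorins) and 935 (plexins) CPM/kb with the median transcript length, and 431 and 449 with coding length. The causes were not tested beyond the construction of each alternative.

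The same replicate numbers do not pair the samples (correlations of deviations -0.29, -0.06 and -0.20 for numbers 1, 2 and 3). With the number as a replicate block, 0 members were called, 2 were lower and 0 higher in males at an unadjusted p under 0.05, the log2 fold change of Sema5a was -0.48 and its adjusted p was 0.491. Depth limits the members with several models, at 2 to 179 counts.

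Of the marker lists not given above, cartilage genes summed to 97.3 to 188 CPM in females and 55.7 to 136 CPM in males, microglia to 128 to 187 and 159 to 188, erythroid cells to 752 to 1012 and 629 to 1166, and choroid plexus, mostly Ttr, to 588 to 700.4 and 725 to 890. Their part in the members' values was not tested.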
